A study of Mus musculus with 8 samples.

Results

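Histone genes that gave reads in poly(A)-selected RNA were examined in mouse leukemic cells treated with the PHD inhibitor IOX5 or with its vehicle. The genes were selected by their symbol and by their reads: protein-coding genes of the 4 replication-dependent histone clusters (symbols that begin with Hist1h to Hist4h) and of the H1, H2A and H3 variants (H1f, H2af and H3f), with at least 10 reads summed over all 8 samples. Of 54838 genes in the files, 59 met this rule, 49 cluster genes and 10 variants. The sum that chose them runs over both groups alike and uses no difference between treatments, but it does fix that each member is detected. Near the minimum a member could pass mainly through 1 group. *Hist1h2bl* had 0, 0, 1 and 0 reads in DMSO and 1, 0, 3 and 6 in IOX5. The reverse held for *Hist1h2af*, with 5, 0, 2 and 1 in DMSO and 1, 1, 0 and 2 in IOX5. Such members enter the sums over cluster genes given below. Of 82 protein-coding genes with a matching symbol, 23 fell below the minimum, and 12 of these had no read. Just inside the minimum lay *Hist1h2ab* and *Hist1h3i* with 10 reads each, and just outside lay *Hist1h3b* and *Hist2h2bb* with 9 reads each.

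The samples were *iMLL-AF9* cells, bone marrow cells labelled as leukemic stem cells and, in the series description, as preleukemic, from C57BL/6 mice whose *MLL-AF9* fusion oncogene is switched on by doxycycline. The labels give their genotype as WT for both groups. There were 4 samples treated with DMSO and 4 treated with IOX5, numbered 1 to 4 in each group, and the dose, the time of treatment and the meaning of the numbers are not given. IOX5 inhibits the HIF prolyl hydroxylases, enzymes that mark the HIF-α transcription factors for degradation when oxygen is present. Nothing states that the samples came from separate animals or cultures, so p-values measure the spread between these samples only.

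Replication-dependent histone genes encode the bulk of H1, H2A, H2B, H3 and H4 during S phase. They lie in clusters and mostly lack introns, and their mRNA ends just after a short stem-loop that is bound by SLBP instead of carrying a poly(A) tail. A smaller part of these transcripts is known to run past the stem-loop to a poly(A) site, or to be spliced to a distant exon, mostly in cells that have slowed or left the cycle. Histone variants such as H2A.Z, H3.3 and macroH2A come from genes outside the clusters, most of which have introns, and are made throughout the cycle as polyadenylated mRNA. Poly(A) selection enriches for the variants and for the polyadenylated part of the cluster transcripts. RNAs without a tail are not fully removed, and gene counts cannot say which end a read came from.

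The stem-loop was looked for in the annotated transcripts, since it is the feature that separates the 2 kinds of histone mRNA. The pattern was GG and 4 more bases, a loop of 4 bases and the reverse complement of the first 6, within 100 bases after the stop codon. It was found in 35 of 49 cluster members (71.4%), against 127 of 21674 protein-coding genes (0.586%), and began 22 to 55 bases after the stop codon. The 35 matches held 7 different sequences. The stem is in capitals and the loop in lower case, read from the GENCODE M21 transcripts, and the members that the results turn on are named with each.
Hist1h1c, Hist1h1e, Hist1h2ao, Hist1h2bj and 15 others (H1, H2A, H2B and H3 genes): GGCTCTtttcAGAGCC
Hist1h3c and 4 others (H2B and H3 genes): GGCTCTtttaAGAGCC
Hist1h4d and 4 others (H4 genes): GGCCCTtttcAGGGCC
Hist1h4i and Hist2h4 (H4 genes): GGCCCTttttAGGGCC
H2afx, the only variant member with a match: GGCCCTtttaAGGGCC
The H4 genes differed from the other cluster genes in the stem. *H2afx*, whose product H2A.X is phosphorylated at DNA breaks, held its match 47 bases after the stop codon and then ran on for 822 annotated bases.

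Of the 14 cluster members with no match, 11 had fewer than 10 annotated bases after the stop codon, so that the place of the stem-loop was not annotated. The other 3 were *Hist1h1a*, *Hist2h2be* and *Hist1h2bc*. *Hist1h2bc*, an H2B gene at chr13:23684199-23692908 (GRCm38, plus strand), has 1 annotated coding transcript, and it is spliced. Its first exon of 423 bases ends 9 bases after the stop codon, and an intron of 7554 bases separates it from a second, non-coding exon of 733 bases at chr13:23692176-23692908. The spliced transcript therefore leaves the stem-loop position out. More than 1 exon was annotated for 2 of 49 cluster members and for 6 of 10 variants. The polyadenylation hexamer AATAAA stood in the last 50 bases of a coding transcript of 7 cluster members (14.3%) and of 8 variants, against 66.2% of protein-coding genes.

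The cluster genes with the most reads had long annotated ends. Of the 9 that passed the low-count filter, 6 had over 300 annotated bases after the stop codon, against 12 of the 40 that did not pass. *Hist1h1c*, which encodes linker histone H1.2, ran on for 840 bases after its stem-loop to an AATAAA. *Hist1h4i* ran on for 330 bases, *Hist1h4d* for 770 and *Hist1h1e* for 1153. *Hist2h2be*, an H2B gene with no match, had 2192 bases after the stop codon and an AATAAA. *Hist1h2ao*, *Hist1h3c* and *Hist1h2bj* ended 31, 74 and 23 bases after the stem-loop. Over the 49 cluster members the number of annotated bases after the stop codon and the total of reads had a Spearman rho of 0.54. That is a description across genes, which also differ in annotated length and in how much of their sequence is unique.

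**Figure D1:**
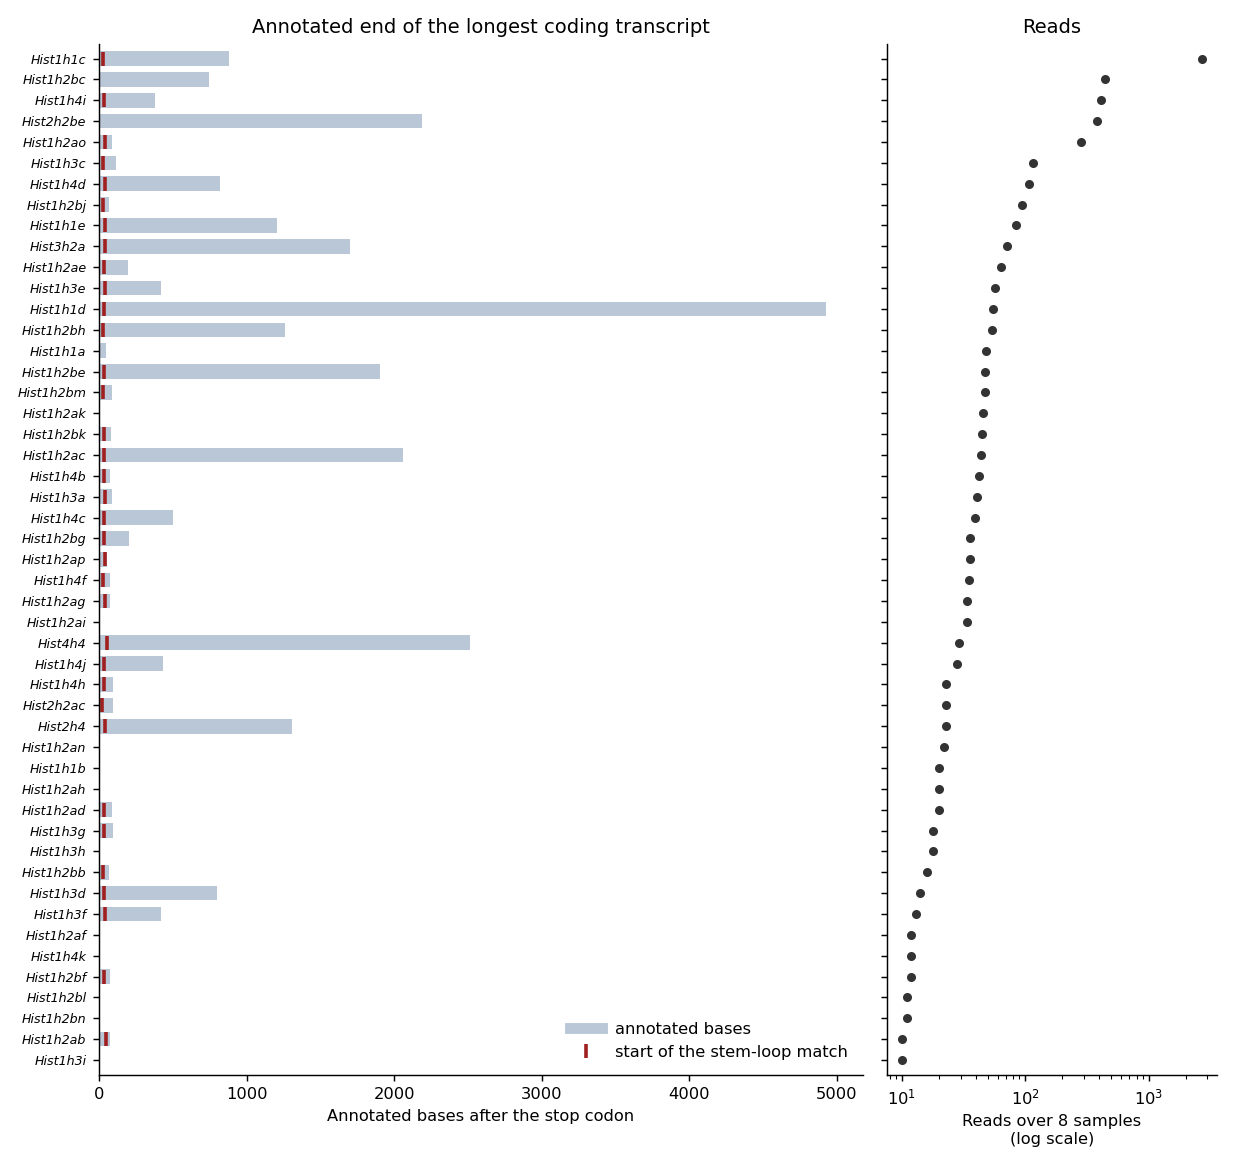
For each of the 49 cluster members, ordered by reads, the bar gives the annotated bases after the stop codon of the longest coding transcript, the red mark the start of the stem-loop match, and the right panel the reads summed over 8 samples (log scale). *Hist1h1c* stands at the top with 2732 reads and 880 annotated bases, *Hist1h2bc* has 742 bases and no mark, and most members below 50 reads have short or no annotated ends.

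Near-identical copies limit what can be counted. Reads that mapped to more than 1 place were set aside by the counter and made up 9.15% to 9.999% of the reads. Cut into stretches of the 85-base read length, 7.07% of *Hist1h2ao* was found in no other annotated gene, and it shared sequence with 19 other genes, so its count is uncertain. The share was 94.0% for *Hist1h1c*, 73.6% for *Hist1h2bc* and 100% for *Hist2h2be*. *H2afj*, *H2afv*, *H2afy* and *H1f0* had 100%, *H3f3b* 97.0%, *H3f3a* 91.2% and *H2afz* 69.2%. The untested cluster members had a median of 60.1%.

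In all, 303853 reads fell on the 59 members, and the variants held 98.1% of them. Levels are in CPM, reads per 1000000 reads on genes after TMM normalization, and are given per kilobase of the longest coding transcript where genes are compared. Per kilobase, *H2afz* (H2A.Z.1) was highest with 567 CPM, followed by *H2afy* (macroH2A1) with 456, *H3f3b* with 318 and *H3f3a* with 110, the latter genes encoding the same protein, H3.3. *H2afx* followed with 55.3, *H1f0* (H1.0, known from non-cycling cells) with 49.5, *H2afj* (H2A.J) with 49.4, *H2afv* (H2A.Z.2) with 34.5 and *H2afy2* (macroH2A2) with 0.708. Among the cluster genes *Hist1h1c* had 17.6 CPM per kilobase, *Hist1h2ao* 5.87, *Hist1h4i* 5.69, *Hist1h2bc* 3.91 and *Hist2h2be* 1.46. *Hist1h1c* alone held 46.3% of the 5903 reads on cluster genes, and the 5 highest cluster genes held 72.2%. The 40 cluster members below the low-count filter had 10 to 71 reads over all 8 samples, with a median of 28.5. The variant below it, *H1fx* (H1.10), had 63.

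**Figure D2:**
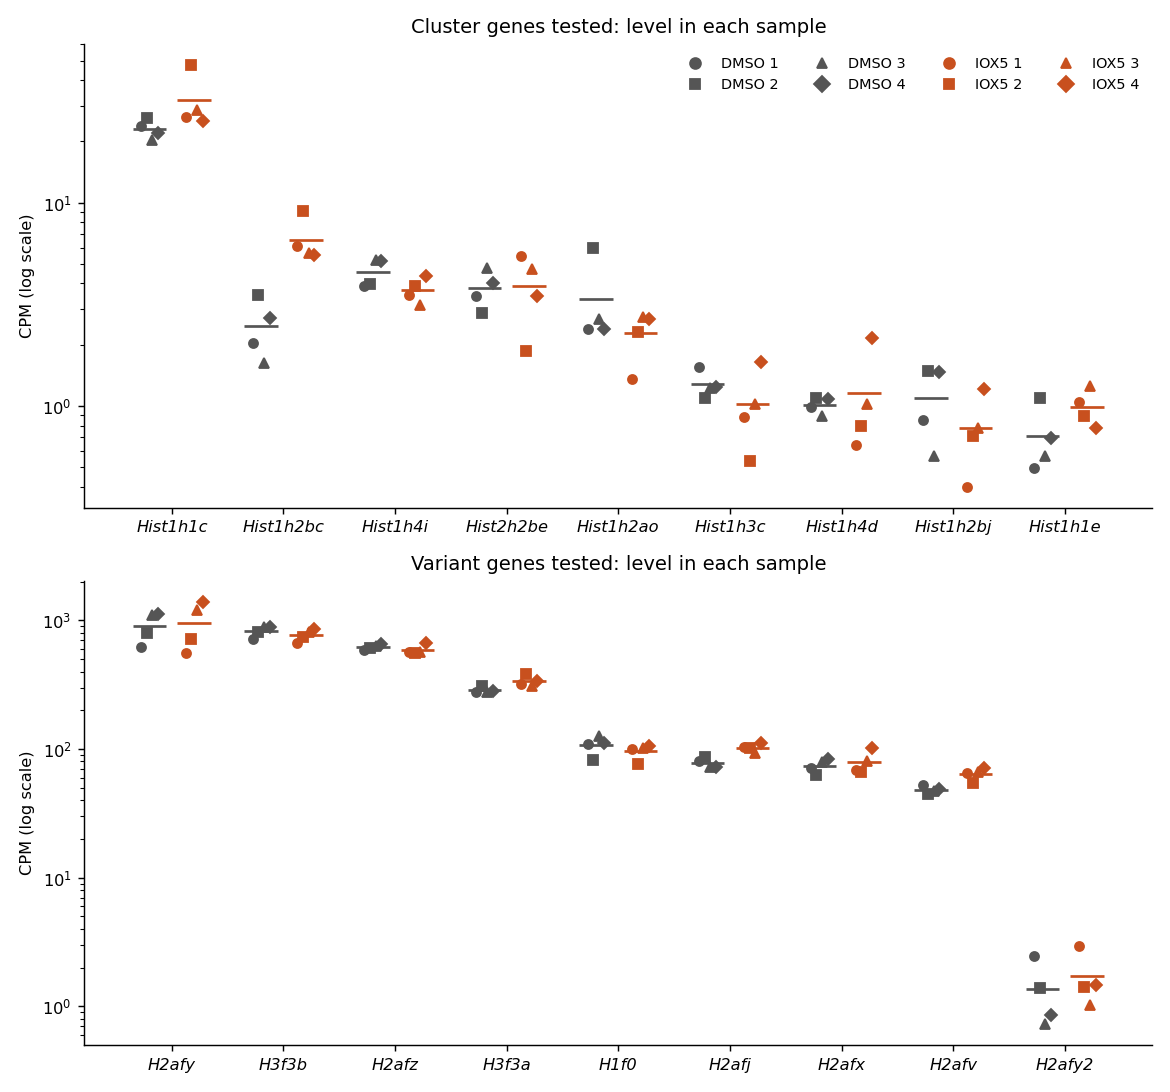
CPM (log scale) of the 9 cluster genes and the 9 variants that were tested, by sample, with DMSO in gray, IOX5 in orange, the replicate number as the marker shape and a line at each group mean. *Hist1h2bc*, *H2afj* and *H2afv* are the genes whose groups do not overlap, and replicates 1 and 2 of *H2afy* lie below replicates 3 and 4 in both groups.

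Before the histone genes were compared, the samples were checked for what else differed. Reads on genes were 12343770 to 14116054 in DMSO and 11351507 to 12708888 in IOX5. Markers of T cells were at or near 0 in every sample (*Cd4* and *Cd8a* had no read), and *Ptprc*, *Kit*, *Cd34*, *Mpo*, *Hoxa9*, *Meis1* and *Itgam* summed to 2043 to 4396 CPM in DMSO and 2343 to 5060 in IOX5. The 4 macrophage markers summed to 147 to 205 CPM in DMSO and to 223 to 497 in IOX5, none of them called, with *Adgre1*, *Csf1r*, *Cd68* and *Mrc1* all expressed. The 5 neutrophil markers summed to 236 to 938 and 323 to 1468 CPM. The top of the macrophage and neutrophil ranges was IOX5 replicate 2. The mast cell and basophil markers summed to 68.5 to 309 and 89.1 to 575 CPM, the megakaryocyte markers to 16.02 to 64.4 and 38.5 to 117, the erythroid markers to 3.11 to 15.4 and 4.97 to 25.6, and the stroma and endothelium markers to 84.0 to 164 and 132 to 219. The sums of these 4 lists and of the macrophage and neutrophil lists were higher in IOX5 in 4 of 4 pairs. The same held for the progenitor and leukemic list, from *Ptprc* to *Itgam*. None of the genes in these lists was called. In the stroma and endothelium list *Col1a1*, *Col1a2*, *Cxcl12* and *Cdh5* were below 1 CPM, so its sum was mostly *Pecam1*. Mitochondrial genes held 1.27% to 1.37% of the reads in DMSO and 1.372% to 1.54% in IOX5, with no overlap. RNAs made without a poly(A) tail summed to 404 to 821 CPM in DMSO and 650 to 1429 in IOX5, mostly from *Gm26917*. Their sum was higher in IOX5 in 4 of 4 pairs. Without the 4 most abundant of them the ranges were 96.1 to 107 and 84.0 to 105, lower in IOX5 in 4 of 4 pairs. The part of these differences in the histone results was not tested. In bulk samples such as these, a change in the share of cells of a type and a change in RNA per cell cannot be told apart.

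The comparison of IOX5 with DMSO asked which histone genes change when PHD activity is blocked. Of the 18 members that could be tested, *Hist1h2bc* and *H2afj* rose with IOX5 and none fell, by edgeR's quasi-likelihood test at a Benjamini-Hochberg adjusted p under 0.05. Over all 12405 genes tested, 0.774% were called higher and 1.25% lower. Samples with the same number deviated together, as did replicates 3 and 4 across numbers. In a fit with the number as a block *Hist1h1c*, *H2afv* and *H3f3a* rose as well, 5 higher and none lower. With this block 11.2% of all genes were called higher and 9.43% lower, so the 5 of 18 members are 27.8% against that background. No member was called lower by DESeq2 either, and at an unadjusted p under 0.05 edgeR had 0 lower members without the block and 1 with it.

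*Hist1h2bc* had the largest difference among the tested members. It was at 2.05, 3.50, 1.62 and 2.70 CPM in DMSO replicates 1 to 4 and at 6.09, 9.06, 5.63 and 5.55 CPM in IOX5. All 4 IOX5 samples lay above all DMSO samples, from 20 to 45 reads per sample against 64 to 102. The means were 2.47 ± 0.818 and 6.58 ± 1.67 CPM (SD, n = 4 each), a ratio of 2.67. The log2 fold change was 1.41 ± 0.28 (SE, edgeR adjusted p = 0.0443), and 1.42 ± 0.17 with the block (adjusted p = 0.000224). An exact two-sided permutation test gave p = 0.0286, the smallest that 70 assignments allow. Without the block the call was lost when any sample other than IOX5 replicate 4 was left out (adjusted p = 0.0669 to 0.129), and with the block it was kept without each pair. Among the 12 H2B cluster members, the sum without *Hist1h2bc* was 7.34 ± 1.13 CPM in DMSO and 7.81 ± 0.961 in IOX5. The genes outside the histone list whose log2 CPM over the 8 samples was most like that of *Hist1h2bc* were *Chmp3* (Pearson r = 0.99), *Usp35* (0.99) and *Laptm4a* (0.98). These points share their 2 groups of libraries.

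*Hist1h1c* was at 23.9, 26.1, 20.3 and 22.0 CPM in DMSO and at 26.4, 47.5, 28.6 and 25.2 CPM in IOX5. Each IOX5 sample exceeded the DMSO sample of its number, but the groups overlapped, and IOX5 replicate 2 lay far above the rest. Its log2 fold change was 0.47 ± 0.20 (edgeR adjusted p = 0.239), and 0.43 ± 0.11 with the block (adjusted p = 0.0164). Without pair 2 the value with the block was 0.28 (adjusted p = 0.0501), and without pair 3 it was 0.40 (adjusted p = 0.0783). In IOX5 replicate 2 the macrophage markers summed to 497 CPM and the neutrophil markers to 1468, against at most 250 and 732 in the other IOX5 samples. *Hist1h2bc* was also highest in this sample, at 9.06 CPM. RNAs made without a poly(A) tail also peaked there, at 1429 CPM against 650, 962 and 1146 in IOX5 replicates 1, 3 and 4. In DMSO their sum was highest in replicate 2 as well, at 821 CPM. Without the 4 most abundant of these RNAs, IOX5 replicate 2 was at 91.9 CPM, inside the IOX5 range of 84.0 to 105. The part of cell types or of untailed RNA in either value was not tested.

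The other cluster genes did not pass the test in either fit. *Hist1h1e* (H1.4) had 0.712 ± 0.265 CPM in DMSO and 0.990 ± 0.204 in IOX5, a log2 fold change of 0.48 ± 0.32, and its annotated end overlaps *Hist1h2be* on the same strand. *Hist1h2ao* (H2A) had 3.37 ± 1.75 and 2.27 ± 0.637 CPM, a log2 fold change of -0.56 ± 0.37, with DMSO replicate 2 at 5.99 CPM and the others at or below 2.74. Without that sample it was -0.13. *Hist1h2bj* (H2B) had a log2 fold change of -0.49 ± 0.42 and *Hist2h2be* (H2B) of 0.03 ± 0.32. *Hist1h3c* (H3) had -0.32 ± 0.34, *Hist1h4i* (H4) -0.29 ± 0.19 and *Hist1h4d* (H4) 0.18 ± 0.39. *Hist1h4i* was lower in IOX5 in all 4 pairs, at 3.88, 3.97, 5.20 and 5.17 CPM in DMSO and 3.52, 3.91, 3.13 and 4.34 CPM in IOX5, but the groups overlapped.

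Summed over the 49 cluster members, the level was 50.8, 60.4, 48.1 and 52.3 CPM in DMSO and 56.1, 82.4, 62.7 and 61.3 CPM in IOX5, higher in 4 of 4 pairs with overlapping groups. *Hist1h1c* and *Hist1h2bc* carried the difference. Without them the sum was 27.3 ± 2.55 CPM in DMSO and 27.1 ± 3.01 in IOX5. By type, the H1 members summed to 25.1 ± 2.95 CPM in DMSO and 34.1 ± 10.6 in IOX5, with overlapping groups, and the H2B members to 9.81 ± 1.07 and 14.4 ± 0.817, without overlap. The H2A members summed to 7.43 ± 2.43 and 6.88 ± 1.20 CPM, the H3 members to 2.92 ± 0.511 and 2.76 ± 0.552, and the H4 members to 7.64 ± 0.977 and 7.47 ± 1.52. The 40 members too low to test summed to 11.5 ± 1.21 CPM in DMSO and 13.3 ± 2.02 in IOX5, higher in 3 of 4 pairs with overlapping groups, from 126 to 177 reads a sample. No fall of the cluster genes with IOX5 was detectable in these poly(A)-selected reads at this depth. Poly(A) selection works against cluster mRNA that ends at the stem-loop, so the total level of cluster mRNA was not measured.

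Among the variants, *H2afj* rose. This gene, at chr6:136808244-136810074, lies near the cluster member *Hist4h4* (chr6:136801553-136804415) and apart from the large cluster on chromosome 13. It encodes an H2A that is known to accumulate in senescent cells. It was at 80.6, 86.6, 72.6 and 72.7 CPM in DMSO and at 104, 102, 93.3 and 111 CPM in IOX5. The groups did not overlap, and the means were 78.1 ± 6.78 and 103 ± 7.24 CPM. IOX5 over DMSO gave a log2 fold change of 0.39 ± 0.08 (edgeR adjusted p = 0.0481), and 0.40 ± 0.07 with the block (adjusted p = 0.00209). Without the block the call was lost when any of the 8 samples was left out (adjusted p = 0.0558 to 0.141), and with the block it was kept without each pair. An annotated miRNA gene lies antisense to it, with 11 reads in all.

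*H2afv*, which encodes H2A.Z.2, was at 52.4, 44.5, 47.1 and 48.6 CPM in DMSO and at 65.7, 54.4, 66.1 and 71.5 CPM in IOX5. All IOX5 samples were above all DMSO samples, with a log2 fold change of 0.42 ± 0.09 (edgeR adjusted p = 0.0541), and 0.42 ± 0.07 with the block (adjusted p = 0.00168). *H2afz*, which encodes the near-identical H2A.Z.1, was at 593, 610, 633 and 650 CPM in DMSO and at 571, 561, 562 and 669 CPM in IOX5, with overlapping groups. Its log2 fold change was -0.07 ± 0.07 (adjusted p = 0.619, and 0.436 with the block). *H2afv* thus made up 7.29% to 8.83% of the level of *H2afz* in DMSO and 9.70% to 11.7% in IOX5. This ratio of CPM has no correction for length or for unique sequence, which is 69.2% for *H2afz* and 100% for *H2afv*.

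*H3f3a* was at 275, 311, 277 and 283 CPM in DMSO and at 322, 386, 307 and 337 CPM in IOX5, higher in 4 of 4 pairs, and the groups overlapped only in that DMSO replicate 2 lay above IOX5 replicate 3. The difference was a log2 fold change of 0.24 ± 0.08 (edgeR adjusted p = 0.147), and 0.24 ± 0.06 with the block (adjusted p = 0.0179). Without pair 1 or pair 3 the adjusted p with the block was 0.0755 and 0.0893. *H3f3b*, the other H3.3 gene, was at 719, 809, 890 and 894 CPM in DMSO and at 672, 741, 806 and 863 CPM in IOX5, lower in 4 of 4 pairs. Its log2 fold change was -0.10 ± 0.10 (adjusted p = 0.598, and 0.252 with the block). The ratio of *H3f3a* to *H3f3b* was 38.3%, 38.4%, 31.1% and 31.6% in DMSO and 47.9%, 52.1%, 38.1% and 39.0% in IOX5. It was higher in every pair, and replicates 1 and 2 stood above 3 and 4 in both groups. The sum of both genes was 1115 ± 83.7 CPM in DMSO and 1109 ± 84.9 in IOX5.

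**Figure D3:**
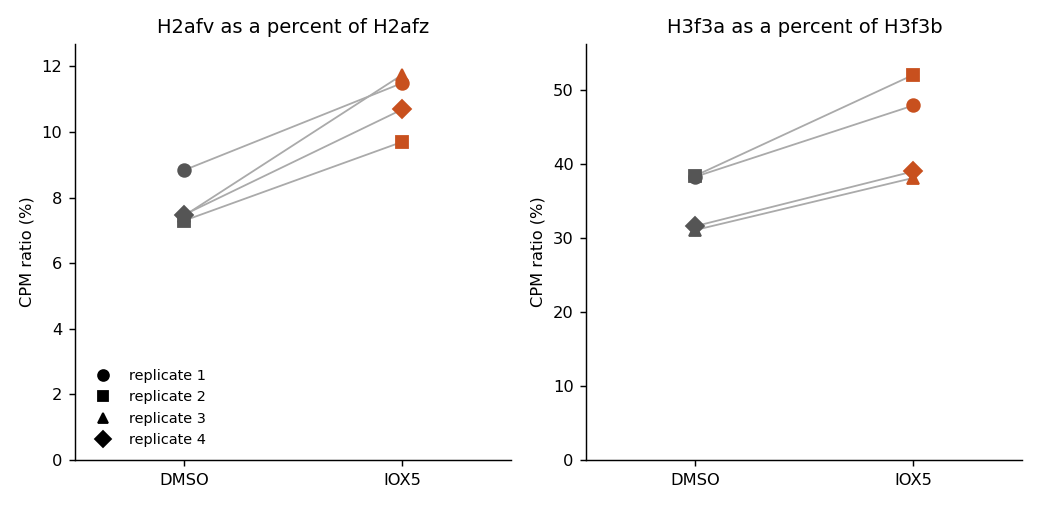
CPM of *H2afv* as a percent of *H2afz* and of *H3f3a* as a percent of *H3f3b*, by treatment, with a line for each replicate number and both axes from 0. All 4 lines rise in both panels, to 9.70% to 11.7% for *H2afv* and to 38.1% to 52.1% for *H3f3a*.

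*H2afy* differed between replicate numbers more than between treatments. It was at 621, 796, 1091 and 1113 CPM in DMSO and at 554, 710, 1203 and 1381 CPM in IOX5, low in replicates 1 and 2 and high in 3 and 4 of both groups. Its log2 fold change was 0.09 ± 0.30, and 0.03 ± 0.08 with the block, neither of which passed the test. The progenitor and leukemic markers summed to 2323, 2043, 4396 and 4150 CPM in DMSO and 2587, 2343, 5060 and 5015 in IOX5, also lower in replicates 1 and 2 than in 3 and 4. The part of this in *H2afy* was not tested. *H2afy2* was low, at 2.47, 1.40, 0.731 and 0.849 CPM in DMSO and 2.96, 1.42, 1.02 and 1.47 CPM in IOX5, with a log2 fold change of 0.32 ± 0.46. It lies antisense to *Aifm2*, which had 1715 reads against its 156, and the strand setting of the counting is not stated.

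*H1f0* was at 110, 82.4, 126 and 111 CPM in DMSO and 100, 76.5, 102 and 106 CPM in IOX5, lower in 4 of 4 pairs. Its log2 fold change was -0.16 ± 0.14 (edgeR adjusted p = 0.571, and 0.104 with the block). *H2afx* was at 70.9, 62.7, 79.5 and 83.4 CPM in DMSO and 68.4, 65.9, 80.0 and 101 CPM in IOX5, a log2 fold change of 0.09 ± 0.15. Neither passed the test.

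As groups, the cluster genes and the variants are given by their medians only, and the difference between them was not tested. The median log2 fold change was 0.03 for the 9 tested cluster genes, with 5 above 0 and a range of -0.56 to 1.41. For the 9 variants it was 0.09, with 6 above 0 and a range of -0.16 to 0.42, and for all 12405 genes it was 0.02. Without the low-count filter the medians were 0.24 and 0.10, and with classes set by the stem-loop -0.10 and 0.16. The groups did not overlap for 1 of 9 cluster genes and 2 of 9 variants, all higher in IOX5, where 5.98% of all genes were higher and 8.3% lower without overlap.

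**Figure D4:**
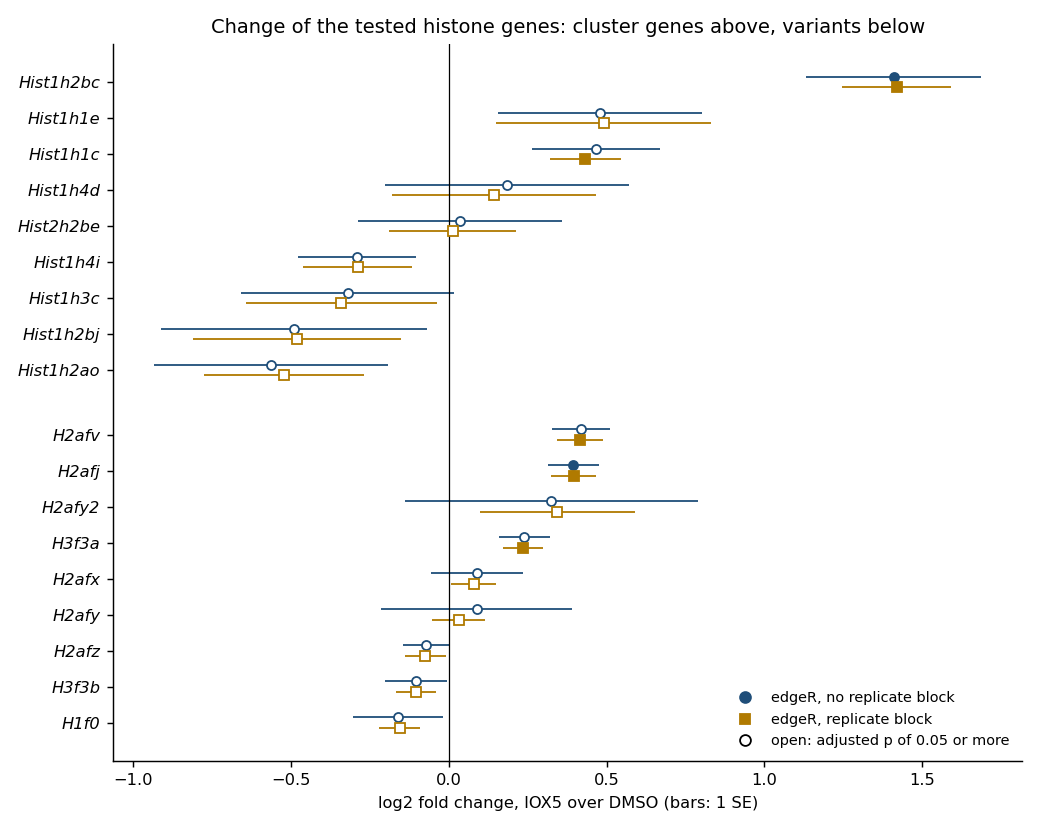
The log2 fold change of IOX5 over DMSO with its SE for the 18 tested members, from edgeR without (blue circles) and with (gold squares) the replicate block, filled where the adjusted p was under 0.05. *Hist1h2bc* lies farthest to the right at 1.41, *H2afv*, *H2afj* and *H3f3a* have narrow bars between 0.24 and 0.42, and no member left of 0 is filled.

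Promoters were read for *H2afj*, *H2afv*, *H2afz*, *H3f3a* and *Hist1h1c*, since PHD inhibition stabilizes HIF, which binds the core letters ACGTG or GCGTG. That of *Hist1h2bc* was not analysed here. The RefSeq promoter table (GRCm38.p6, 250 bases before to 50 after the start) held 53 of the 59 members. *H2afj* (chr6:136807998-136808297, plus strand) and *H2afv* (chr11:6444394-6444693, minus strand) are shown, as the variants whose groups did not overlap, with ACGTG and GCGTG on either strand in capitals.
H2afj: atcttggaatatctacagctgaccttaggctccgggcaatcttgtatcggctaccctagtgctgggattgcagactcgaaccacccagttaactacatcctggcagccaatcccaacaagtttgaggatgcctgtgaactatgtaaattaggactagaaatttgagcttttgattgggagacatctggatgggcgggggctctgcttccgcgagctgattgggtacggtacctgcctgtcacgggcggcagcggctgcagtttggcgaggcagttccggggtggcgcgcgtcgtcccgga
H2afv: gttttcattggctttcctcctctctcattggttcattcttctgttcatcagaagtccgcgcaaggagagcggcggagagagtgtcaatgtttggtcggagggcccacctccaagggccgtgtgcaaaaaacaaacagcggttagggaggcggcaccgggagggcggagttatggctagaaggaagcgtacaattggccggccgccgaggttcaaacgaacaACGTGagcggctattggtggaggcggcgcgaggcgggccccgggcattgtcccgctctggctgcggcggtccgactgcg
*H2afj* held neither motif, and *H2afv* held ACGTG once, 29 bases before the start. *H2afz*, which passed neither fit, held 3 matches, at 208, 207 and 86 bases before the start, counting both strands. At least 1 of these motifs stood in 7 of 9 variant promoters and in 14 of 45 cluster promoters (31.1%), against 43.8% of all 32851 promoters of this length. *H3f3a* held GCGTG in 2 places, and *Hist1h1c* had no match. CCAAT, the letters of the CCAAT box, stood on either strand in 38 of the 45 promoters of cluster genes (84.4%) and 6 of 9 variant promoters, against 37.4% of all. TATAAA stood on the plus strand in 46.7% of the cluster promoters, against 8.32%, and the octamer ATTTGCAT, known from H2B promoters, in 24.4% on either strand, against 1.74%. A match is a description of the letters and no evidence of binding.

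The genes that supply histone mRNA and load histones were taken from a list that holds factors of the histone mRNA 3′ end and of cluster transcription, and chaperones. In the first of these, 21 of 23 genes had a log2 fold change below 0, with a median of -0.15, against 0.02 for all 12405 genes. *Casp8ap2* (FLASH), needed for histone 3′ processing and cluster transcription, fell. It was at 101, 104, 101 and 104 CPM in DMSO and at 76.0, 73.1, 82.0 and 64.9 CPM in IOX5, and the groups did not overlap. This was a log2 fold change of -0.47 ± 0.07 (edgeR adjusted p = 0.0254, and 0.000802 with the block). It kept the call without the block only when IOX5 replicate 2 or 4 was left out, and its adjusted p was 0.0557 to 0.111 without any other sample.

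With the block, 5 genes of the first list fell and *Lsm10*, a subunit of the U7 particle that cuts histone mRNA, rose. Of all genes, 9.43% were called lower and 11.2% higher with it. *Slbp*, which encodes the stem-loop binding protein, was at 123, 134, 136 and 138 CPM in DMSO and 108, 101, 109 and 125 CPM in IOX5, a log2 fold change of -0.26 ± 0.08 (adjusted p = 0.107, and 0.0139 with the block). *Npat*, the cyclin E target that switches on the clusters, had 82.0 ± 7.30 and 65.2 ± 9.21 CPM, a log2 fold change of -0.33 ± 0.11 (adjusted p = 0.144, and 0.00561 with the block). *Ccne1* and *Ccne2*, the cyclins E, had -0.44 ± 0.17 and -0.26 ± 0.07 (adjusted p = 0.00825 and 0.0246 with the block). The cleavage and polyadenylation genes *Cpsf2*, *Cpsf3*, *Cpsf4*, *Cstf2*, *Wdr33*, *Fip1l1* and *Papola* did not pass the test in either fit.

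Among 29 chaperone and assembly genes, 25 had a log2 fold change below 0, with a median of -0.17. None was called without the block, and 10 fell with it, against 9.43% of all genes. *Nasp*, a carrier of H3 and H4, had 288 ± 17.6 CPM in DMSO and 209 ± 36.1 in IOX5 (log2 fold change -0.46 ± 0.11, adjusted p = 0.00225 with the block). *Asf1b*, which hands H3-H4 on at the fork, had 82.1 ± 8.05 and 62.6 ± 4.87 CPM (-0.39 ± 0.09, adjusted p = 0.00113 with the block). *Cenpa*, the centromeric H3, is itself a histone variant, but its symbol lies outside the rule that chose the members. It had 156 ± 14.0 and 123 ± 12.9 CPM, without overlap (-0.34 ± 0.09, adjusted p = 0.00331 with the block). *Chaf1a* of the CAF-1 complex had 185 ± 8.95 and 160 ± 11.3 CPM (-0.21 ± 0.07, adjusted p = 0.0456 with the block). *Atrx*, which loads H3.3 with the product of *Daxx*, had 262 CPM in DMSO and 224 in IOX5, without overlap (-0.22 ± 0.08, adjusted p = 0.165, and 0.0336 with the block). *Hira* and *Daxx*, which load H3.3, and *Srcap*, *Ep400*, *Znhit1* and *Vps72*, which load H2A.Z, did not pass in either fit. *Anp32e*, which removes H2A.Z, had 536 ± 28.0 and 449 ± 40.4 CPM (-0.26 ± 0.08, adjusted p = 0.108, and 0.0230 with the block).

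Of 20 S phase genes, 19 had a log2 fold change below 0, with a median of -0.27. *Slbp* is in both this list and the first. Without the block 4 (*Mcm4*, *Rrm2*, *Cdc6* and *Cdt1*) fell, and with it 15, against 1.25% and 9.43% of all genes. *Rrm2*, a subunit of ribonucleotide reductase, had the largest difference, from 382 to 269 CPM (log2 fold change -0.51 ± 0.09, adjusted p = 0.0294). *Pcna*, *Tyms*, *Gins2*, *Prim1* and *Rfc2* did not pass in either fit. Summed, the S phase genes were at 4868 to 5197 CPM in DMSO and 3724 to 4687 in IOX5. Of the 9 tested cluster genes, none was called lower in this poly(A)-selected RNA in any of the fits with all samples. The difference between the S phase genes and the cluster genes was not tested.

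**Figure D5:**
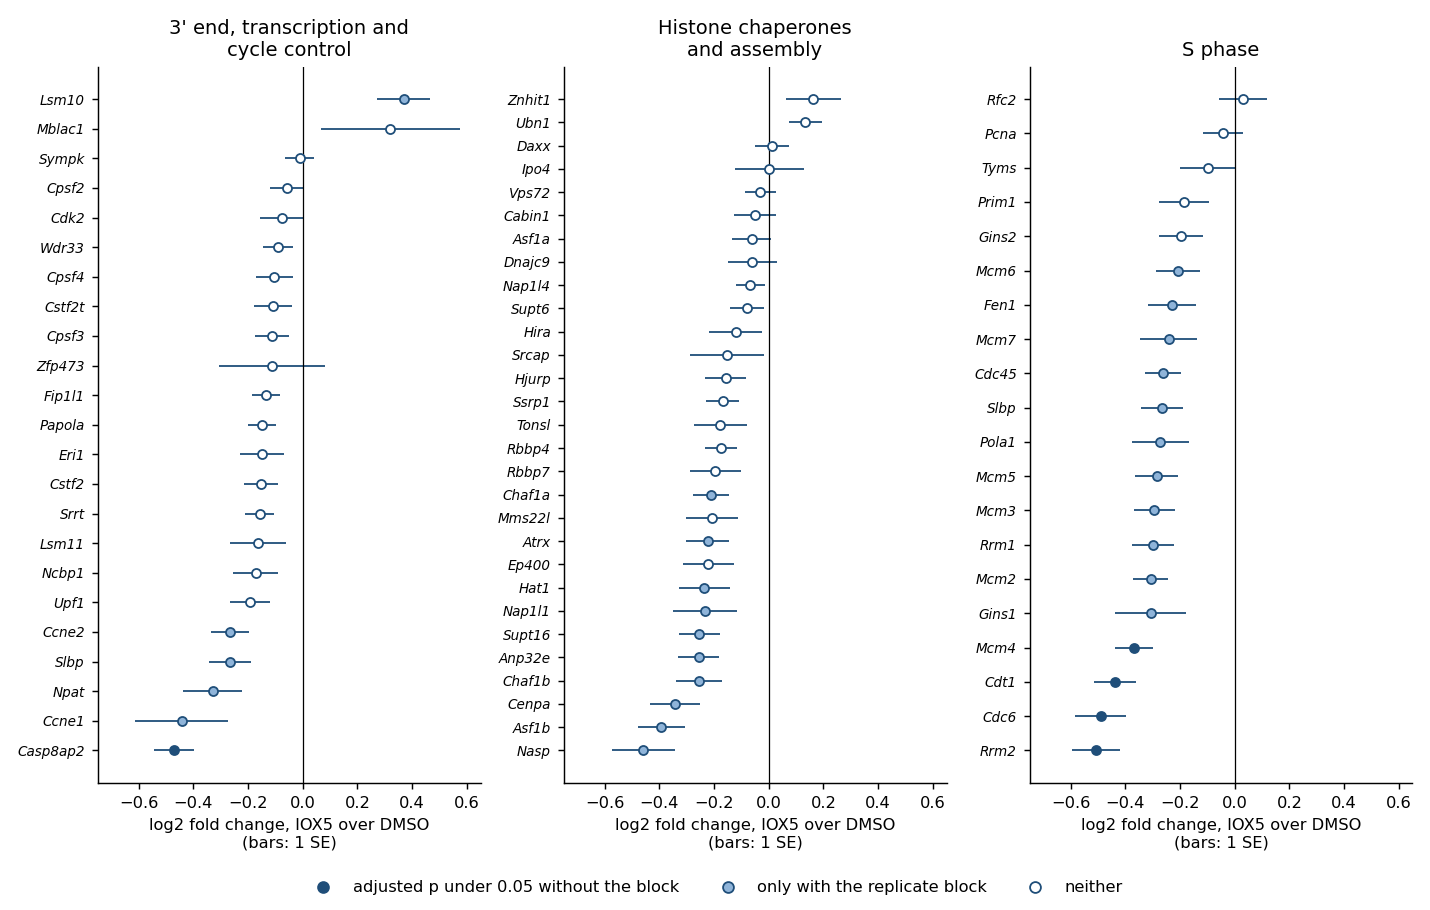
The log2 fold change of IOX5 over DMSO with its SE, from edgeR without the block, for 23 genes of the histone 3′ end, transcription and cycle control, 29 chaperone and assembly genes and 20 S phase genes, dark where called, light where called with the replicate block only and open where neither. *Casp8ap2* at -0.47 is the lowest point of the left panel and *Rrm2* at -0.51 of the right panel, both filled dark, and *Lsm10* is the filled point to the right of 0.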

How the data were processed

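RNA-seq counts of 4 DMSO and 4 IOX5 samples were used, grouped by their labels. The methods of the study describe directional libraries of poly(A) RNA read as 85-base single ends. The authors trimmed the reads with Cutadapt 1.18, placed them on GRCm38 with HISAT2 2.2.1 and counted them with HTSeq 2.0.1. The deposited values are whole-number counts of uniquely placed reads per gene, with no normalization. The 5 summary lines of each file (20.6% to 22.6% of reads) were left out. The annotation and strand setting of the counting are not given in the sources used here. Names, coordinates and transcripts come from GENCODE M21, which 54809 of 54838 genes matched.

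Genes were filtered with filterByExpr (12405 kept), scaled by TMM (0.988 to 1.03) and tested with edgeR 4.0.16 (R 4.3.3), and calls were made at a Benjamini-Hochberg adjusted p under 0.05 over all genes tested. The common biological coefficient of variation was 0.202. The number of reads sets the precision of each count, and replicates differed by more than sampling noise. Single members were also compared by exact permutation over 70 assignments of log2 CPM (prior count 2). Members and gene lists were chosen with earlier results of these data known. Lists are described by counts and medians, with no test.

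Samples that share a number correlated in their deviations from the group means by 0.636 to 0.758, all 4 pairs above 0.1. The replicate number was therefore also fitted as a block. Samples of different numbers ran from -0.615 to 0.685. Replicates 3 and 4 correlated across numbers as well (0.685 for DMSO 4 with IOX5 3, 0.617 for DMSO 3 with IOX5 4). The data thus do not tell these numbers apart. No label explains the numbers, so the pairing rests on these correlations. The other alternatives were DESeq2 1.42.0, RLE and upper-quartile factors, no filter, at least 10 counts in every sample, removal of a length and GC trend, each sample left out, and classes set by the stem-loop. DESeq2 with the block, the block without each pair, and the 100-base window for the stem-loop were chosen after seeing the data.

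The genes named were those called in either fit, the 8 cluster genes and 8 variants of highest mean CPM, the member of smallest p in each histone type and class, each tested variant, and from the supply list those called with *Slbp*, *Npat*, *Casp8ap2*, *Hira* and *Chaf1a*. Other genes of the lists, and the sums without *Hist1h1c* and *Hist1h2bc*, were chosen after their values were seen.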

Additional observations from a re-analysis of the deposited data

Results flagged for a closer look

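In groups of 4 samples, a sample was singled out where its gap to the nearest other took up more of the group's range than Dixon's critical value for 4 samples allows, which chance gives in about 1 of 20 groups. Of 36 groups (18 tested members in DMSO and in IOX5), 4 held such a sample. *Hist1h1c* in IOX5 replicate 2 was at 47.5 CPM, with the next sample at 28.6. *Hist1h2bc* in IOX5 replicate 2 was at 9.06 CPM, with the next at 6.09. *Hist1h2ao* in DMSO replicate 2 was at 5.99 CPM, with the next at 2.68. *H2afz* in IOX5 replicate 4 was at 669 CPM, with the next at 571.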

How the results depend on the processing

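The number of members called higher was 2 without the block. It was 4 with DESeq2 (which gave no adjusted p for 6 of the 18), 1 without the low-count filter, 5 with the replicate block, 5 with the block and the length and GC trend removed, 5 with DESeq2 and the block, 0 to 1 with a sample left out, and with the block 4, 4, 3 and 5 without pairs 1 to 4. The number called lower was 0 throughout except for 1 (*H1f0*) with the block and the length and GC trend removed, where its adjusted p was 0.0346. The supply genes called lower went from 1 to 8 with DESeq2, 15 with the block, 12 with DESeq2 and the block, 0 to 5 with a sample left out, and 7, 9, 7 and 16 with the block without pairs 1 to 4. Those called higher went from 0 to 1 with DESeq2, with the block, and with the block without pair 2 or 4. Over all genes edgeR called 11, 17, 0 and 0 without DMSO replicates 1 to 4 and 74, 133, 0 and 466 without IOX5 replicates 1 to 4, while 1833 to 2883 had an unadjusted p under 0.05.

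The cluster median of 0.03 was 0.24 without the filter (49 genes) and -0.10 with classes set by the stem-loop (8 genes). It ran from -0.30 to 0.21 with a sample left out, and with the block it was -0.17 without pair 1 and -0.26 without pair 4. The variant median of 0.09 ran from -0.0526 to 0.17 with a sample left out. Of 478 log2 fold changes of single genes under the alternatives, 399 kept their sign and call, 22 lost a call, 40 gained one and 17 changed sign, in 5 genes that passed no test. *Hist2h2be* was at -0.0122 with DESeq2 and the block, at -0.18 to 0.26 with a sample left out and at -0.24 with the block without pair 1. *Hist1h4d* was at -0.30 to 0.38 with a sample left out and at -0.26 with the block without pair 4. *H2afx* was at -0.0155 with the length and GC trend removed, at -0.0216 with the block as well, and at -0.0526 to 0.17 with a sample left out. *H2afy* was at -0.14 to 0.28 with a sample left out, and with the block at -0.0158 without pair 3 and -0.0509 without pair 4. *H2afy2* was at -0.0765 to 0.78 with a sample left out. The cause of these changes was not tested. At 10 to 71 reads, a change in a single low cluster gene was not detectable.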
